A study of Arabidopsis thaliana with 6 samples.

Results

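The NPF family (also called NRT1/PTR) of Arabidopsis thaliana was followed in root protoplasts. Its members were chosen by locus, from a list of 45 NPF loci, and not by a rule on their values. Earlier results of these data were known when the list was chosen. A member was measured where the array annotation gave it a probe set naming that gene alone. Of the 45 loci, 34 (75.6%) were measured, each by 1 probe set, out of 13286 genes measured in all. The 11 others were NRT1.6, NRT1.7, PTR1, PTR2, PTR3, PTR4, PTR5, PTR6, AT1G72120 (NPF5.14), AT3G54450 and AT3G45660, and the last was covered only by a probe set that it shares with a neighbouring gene. These 11 were not analysed here, so the peptide transporters named PTR have no value below. Loci outside the list of 45 were not analysed as members, and counts and rankings for the family below cover its measured members only.

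All 6 samples were protoplasts from nitrate-treated roots, transfected with a plasmid from which HRS1 (AtNIGT1) was made under the CaMV 35S promoter as a fusion to the glucocorticoid receptor. All were kept in nitrate and given 35 µM cycloheximide, which blocks translation, and were sorted by red fluorescent protein. In 3 samples (+DEX) 10 µM dexamethasone let the fusion enter the nucleus, and in 3 (−DEX) it was not added. RNA was amplified and each sample hybridised to 1 ATH1 array, a 3′-directed oligonucleotide array. Nothing in the labels states whether replicates were separate cultures, and the p-values then reflect only how far these samples varied, which can be technical.

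NPF proteins are membrane carriers that couple the uptake of a substrate to protons. The family was first known for nitrate and for short peptides, and members have since been found to carry glucosinolates, abscisic acid, gibberellins and other compounds. In roots they serve nitrate uptake, its loading into and retrieval from the xylem, and its storage. HRS1 is a GARP-type transcription factor whose gene responds to nitrate, and setting +DEX against −DEX asks what follows its entry into the nucleus while translation is blocked.

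Levels are given as log2 of the intensity after scaling to 1 median for all arrays. Before this scaling the median deposited intensity ranged from 66.3 to 92.9. The background level of an array was the 95th percentile of its 27 control probe sets for Bacillus RNA, and it was 6.24, 6.60 and 5.36 without DEX and 5.55, 5.08 and 5.73 with it. One array, −DEX replicate 1, resembled the rest least (mean Spearman correlation 0.708, where the other 5 had 0.777 to 0.822). Root markers could not be used to check the cells: EXPA7 of root hairs and the cortex gene AT1G62500 lay below background on all 6 arrays, the endodermal AT4G28100 exceeded it on −DEX replicate 3 only, and the 21 other loci of the marker lists were not measured. Since sorted cells were measured in bulk, fewer cells of a type and less RNA per cell cannot be told apart.

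Most of the measured NPF genes were at or near background. Above it on all 6 arrays were 4 of 34 (11.8%), against 33.4% of all 22746 probe sets tested. These 4 were GTR1, AT1G59740 (NPF4.3), AT1G22570 and AT1G72140. Another 5 were above it on all 3 arrays of 1 group: GTR2 on the −DEX arrays, and AT3G25260 (NPF4.1), AT3G45710, AT5G46040 and AT3G53960 on the +DEX arrays. A further 13 were above it on fewer arrays, and 12 (35.3%, against 19.4% of all probe sets) on 0 arrays.

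Individual arrays differed in how much of the family they showed. The number of members above background was 13, 8 and 11 without DEX (38.2%, 23.5% and 32.4%) and 10, 14 and 13 with it (29.4%, 41.2% and 38.2%). Of all probe sets, 51.4%, 46.5% and 61.8% were above it without DEX and 59.1%, 64.6% and 57.2% with it. The fewest members were on the array with the highest background level (6.60) and the most on that with the lowest (5.08). Replicate 1 without DEX held the highest of the 6 values for 12 of 34 members (35.3%, against 26.9% of all probe sets), and +DEX replicate 3 for 10 (29.4%, against 13.6%). In 5 members, AT3G45720, AT3G45690, AT5G28470, AT1G68570 and AT2G40460, −DEX replicate 1 was the only array above background (14.7%, against 3.02% of all probe sets). Their differences are given below with and without this array.

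**Figure D1:**
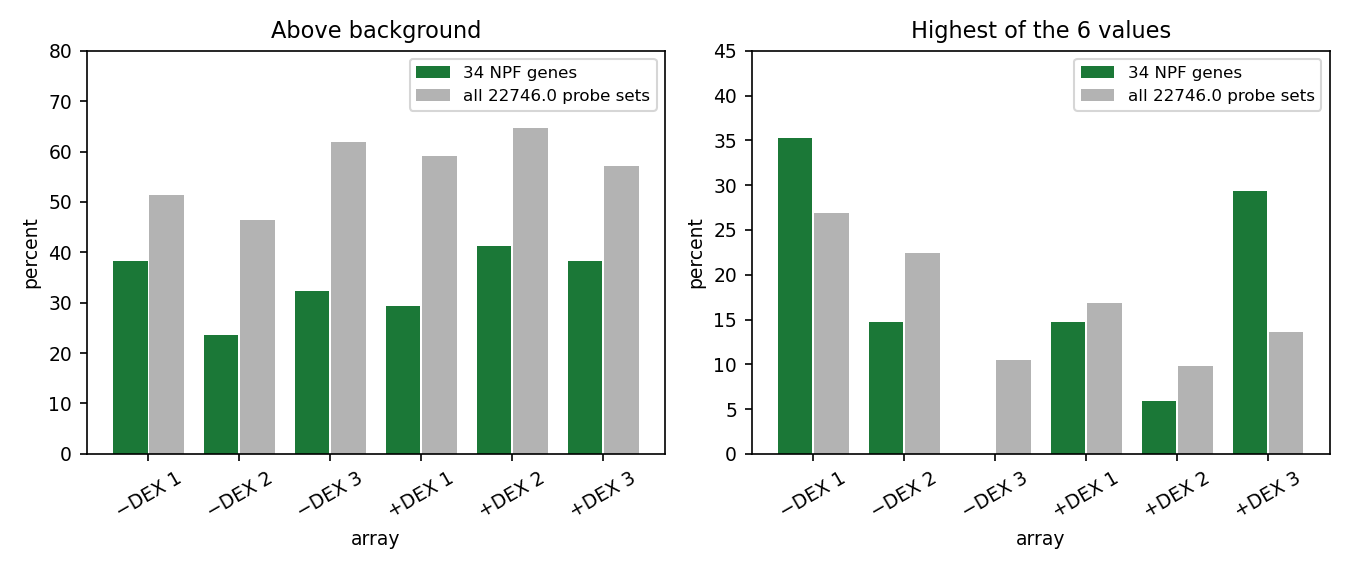
Bars give, for each of the 6 arrays, the percent of the 34 measured NPF genes (green) and of all 22746 probe sets (grey) above that array's background level (left) or highest on that array (right). On every array a smaller percent of NPF genes than of all probe sets lay above background, and −DEX replicate 1 and +DEX replicate 3 held the highest value for 12 and 10 NPF genes.

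With DEX, no NPF gene passed the threshold in either direction. In limma, fitted over all probe sets with Benjamini-Hochberg adjustment at 0.05, 0 of 34 members were lower, where 0.119% of all probe sets (27) were called lower, and 0 were higher, where 0.0% of all probe sets were. The smallest adjusted p of a member was 0.738. At an unadjusted limma p under 0.05 there were 5 members (14.7%, against 6.59% of all probe sets), namely AT5G11570 with a lower level and AT3G45700, AT3G45710, AT5G46040 and AT1G72140 with a higher one. By direction this was 2.94% lower and 11.8% higher, where all probe sets gave 4.1% lower and 2.49% higher. This balance rested on single arrays: there was 0 lower and 1 higher member without −DEX replicate 1, 2 and 2 without −DEX replicate 2, and 3 and 3 without −DEX replicate 3. Values did not overlap between the groups in 7 members (20.6%, against 12.5% of all probe sets), of which 5 were higher (14.7%, against 4.99%) and 2 lower (5.88%, against 7.55%). An exact two-sided permutation test of 3 against 3 cannot go below 0.1, so for single genes it could not reach 0.05. The standard error of a log2 difference was 0.42 to 0.67 for the 4 members above background throughout and had a median of 1.35 for the 12 that never were.

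**Figure D2:**
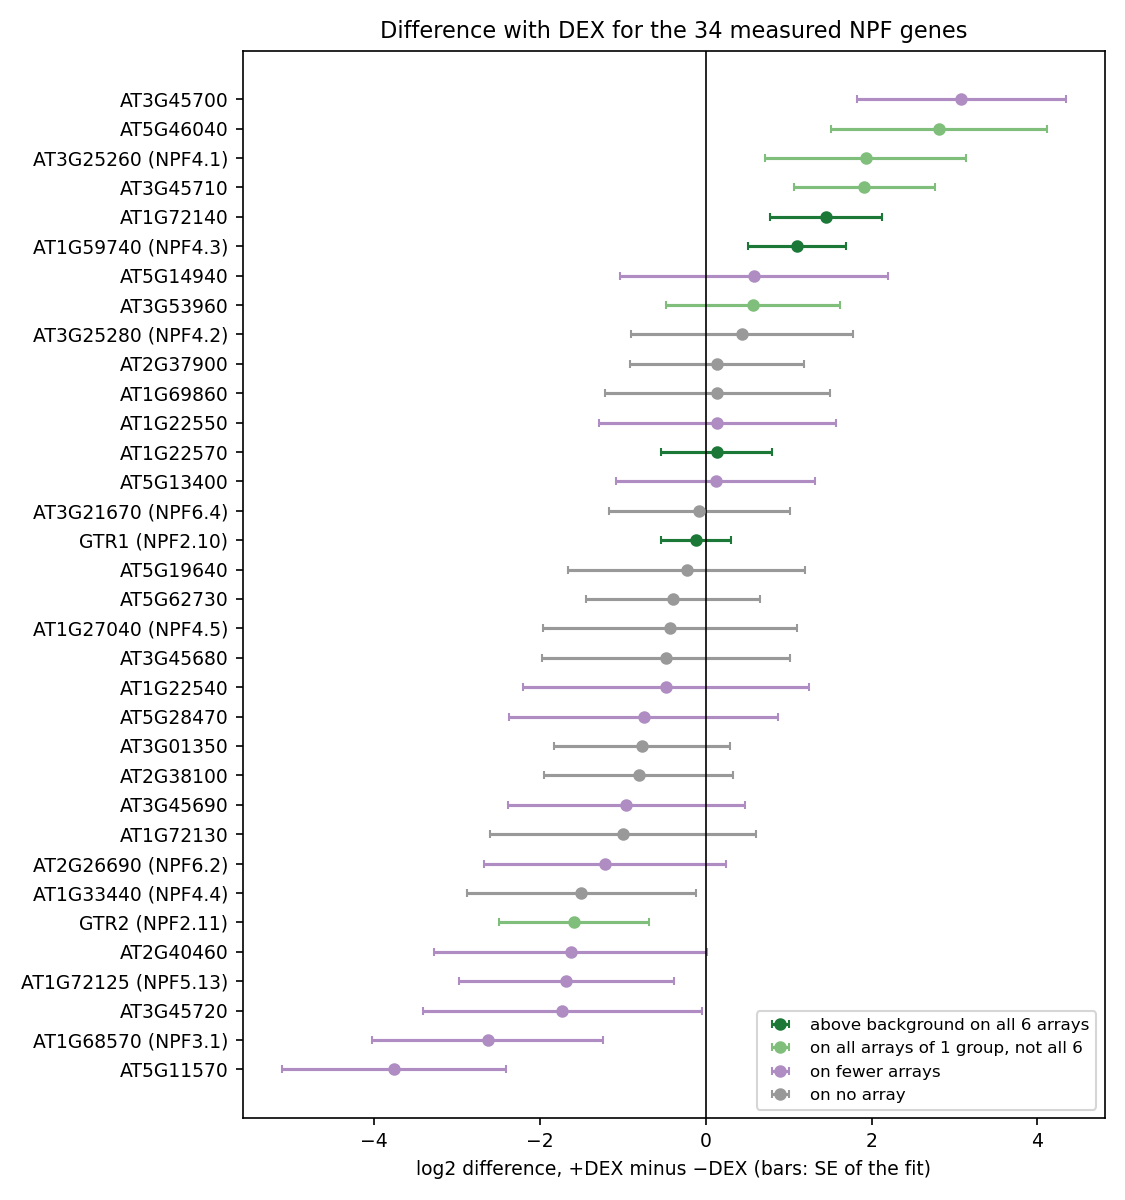
Points give the log2 difference, +DEX minus −DEX, of each of the 34 measured NPF genes, and bars the standard error of the limma fit; colour shows on how many arrays the gene lay above background. Errors were narrowest for GTR1, at 0.42, and none of the 34 genes reached an adjusted p under 0.05.

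The glucosinolate transporters GTR1 and GTR2 were both detected. Glucosinolates are defence compounds of the cabbage order, and both proteins are proton symporters that load them into the phloem and hold them in roots. GTR1 (AT3G47960, NPF2.10) had log2 levels of 11.35, 12.55 and 12.33 without DEX and 12.15, 11.63 and 12.10 with DEX. The groups overlapped, with the lowest and the highest value both among the −DEX arrays, and the deposited intensities ran from 2330 to 5620. Its difference was −0.12 ± 0.42 (SE; limma adjusted p = 0.971), with a 95% interval of −1.02 to 0.78, or 0.494-fold to 1.72-fold. This was the narrowest interval in the family, and it leaves room for changes within those folds in either direction. The sign of so small a value turned with the scaling, to 0.16 after quantile normalization and 0.074 as deposited.

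GTR2 (AT5G62680, NPF2.11) stood at 8.14, 7.67 and 7.43 without DEX and at 5.09, 7.32 and 6.07 with it. All +DEX values lay below all −DEX values, but the highest +DEX and the lowest −DEX value were 0.12 apart, and +DEX replicate 1 was below background. The mean was 7.75 ± 0.36 without and 6.16 ± 1.11 with DEX (SD, n = 3 each), a difference of −1.59 ± 0.91 (SE; limma adjusted p = 0.773). Without +DEX replicate 1 the difference was −1.05. Whether GTR1 and GTR2 differ from each other in their response was not tested. Of 18 loci of glucosinolate synthesis and its regulators, 1 was measured and 0 passed the threshold. It was UGT74B1 (AT1G24100), a glucosyltransferase of the core pathway, at 10.28, 7.42 and 8.74 without and 8.50, 8.47 and 8.09 with DEX. The −DEX values enclosed the +DEX values, and the difference of −0.46 ± 0.75 (SE) became 0.28 without −DEX replicate 1.

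Of the measured members with an NPF4 number, NPF4.3 was above background on all 6 arrays and NPF4.1 on 4 of 6. NPF4.1 (AT3G25260) can import the hormones abscisic acid and gibberellin when expressed in yeast. It lay at 6.50, 6.28 and 2.52 without DEX and at 7.06, 6.90 and 7.15 with DEX. The +DEX arrays were close together and all above the −DEX arrays, of which only replicate 1 exceeded background. The difference of 1.93 ± 1.21 (SE; limma adjusted p = 0.789) rested on −DEX replicate 3, and without that array it was 0.64. NPF4.3 (AT1G59740), above background throughout, had levels of 8.31, 9.20 and 9.56 without and 10.36, 9.35 and 10.67 with DEX. The groups overlapped at +DEX replicate 2, and the difference was 1.10 ± 0.59 (SE; limma adjusted p = 0.766). It was 0.75 without −DEX replicate 1 and 1.49 without +DEX replicate 2.

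The other 3 measured members with an NPF4 number, AT3G25280 (NPF4.2), AT1G33440 (NPF4.4) and AT1G27040 (NPF4.5), lay below background on all 6 arrays. NPF4.2 is the near neighbour of NPF4.1 on chromosome 3, with 2 coding genes between them, and its highest value was 5.21. NPF3.1 (AT1G68570), a plasma membrane carrier that moves gibberellin in the root endodermis, had levels of 7.38, 3.01 and 5.31 without and 2.77, 3.26 and 1.77 with DEX. Only −DEX replicate 1 was above background, and the groups overlapped. The difference was −2.63 ± 1.39 (SE; limma adjusted p = 0.766), and −1.56 without −DEX replicate 1. Of 6 loci for hormone transport outside the family, 3 were measured and 0 passed the threshold. AT5G52050 was at 13.09, 12.66 and 12.53 without and 12.38, 12.77 and 12.26 with DEX, an overlap with a difference of −0.29 ± 0.36 (SE). After quantile normalization that difference was 0.072. SWEET13 was above background on −DEX replicate 1 only, and SWEET14 on 0 arrays.

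The 2 measured members with an NPF6 number gave little signal. NPF6.2 (AT2G26690), a nitrate carrier known for nitrate storage in petioles, was above background on 1 of 6 arrays, with levels of 5.11, 5.99 and 4.88 without and 5.66, 0.92 and 5.72 with DEX. The groups overlapped, with 1 low value on +DEX replicate 2, and without that array the difference changed from −1.22 to 0.37. NPF6.4 (AT3G21670) lay below background on every array, at 1.15 to 3.28. Outside the family, 1 of 21 loci for nitrate carriers and channels was measured. This was NRT2.5, a high-affinity carrier, and it too was below background on every array, at 2.05 to 4.77.

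**Figure D3:**
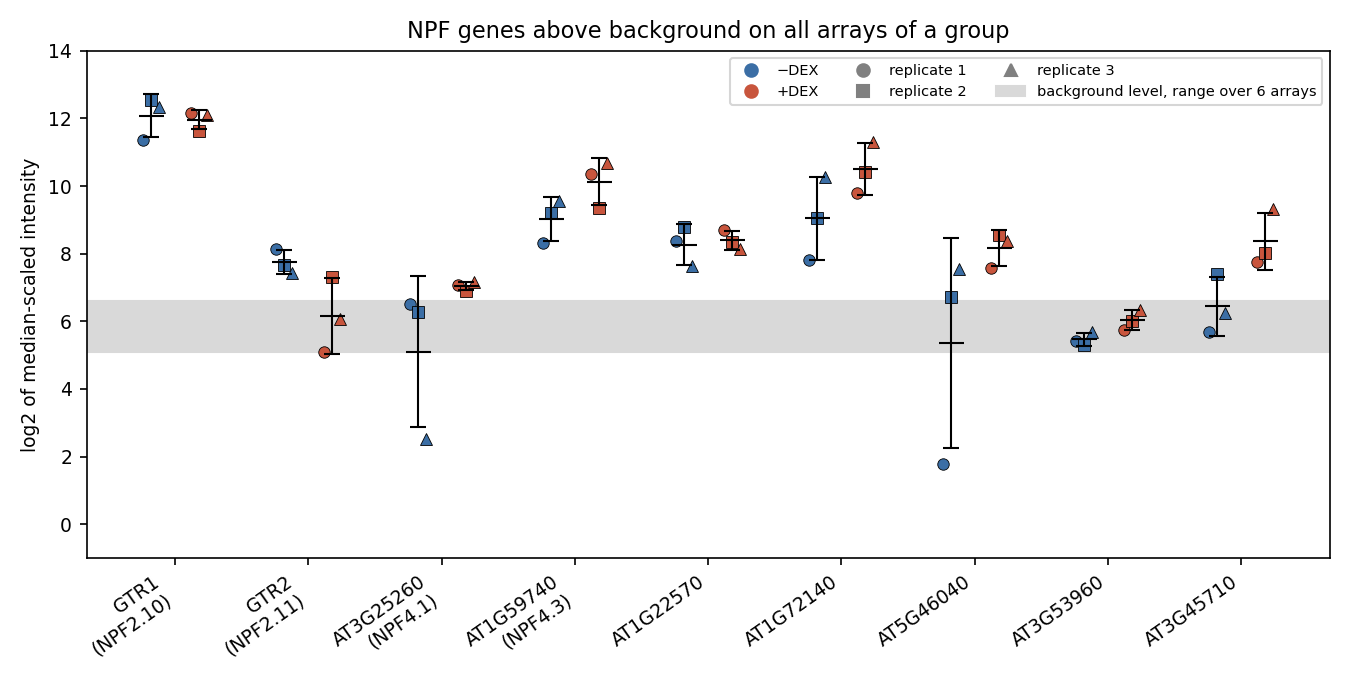
The log2 of the median-scaled intensity is shown on each array for the 9 NPF genes above background on all arrays of at least 1 group; blue is −DEX, red +DEX, marker shape the replicate number, the horizontal line and bar the mean ± SD (n = 3), and the grey band the range of the background level. Values of different genes come from different probe sets and are not comparable in height. The groups overlapped in GTR1, NPF4.3, AT1G72140 and AT1G22570.

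On chromosome 3, 5 measured members, AT3G45680, AT3G45690, AT3G45700, AT3G45710 and AT3G45720, follow each other in the gene table. Their row, which also holds the unmeasured AT3G45660, has at most 2 other coding genes between one member and the next. The values of the 5 differed from one to the next. AT3G45710 was above background on 5 of 6 arrays, at 5.69, 7.40 and 6.25 without and 7.76, 8.01 and 9.33 with DEX. Every +DEX value was above every −DEX value, with 0.36 between the nearest values. Its mean was 6.45 ± 0.87 without and 8.36 ± 0.84 with DEX (SD, n = 3 each), a difference of 1.91 ± 0.85 (SE; limma adjusted p = 0.751). Leaving out single arrays gave differences from 1.43 to 2.39.

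Its neighbour AT3G45700 also had all +DEX values on the upper side, at 2.70, 1.43 and 3.45 without and 6.47, 5.38 and 4.99 with DEX. All −DEX values lay below background, and so did +DEX replicate 3. The difference as measured was 3.08 ± 1.26 (SE; limma adjusted p = 0.751), but under a floor of 5 (log2) it was 0.62. The mean of the +DEX arrays, 5.61, was under the −DEX background level of 6.07, so no ratio is given.

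The other 3 measured genes of the row did not share that pattern. AT3G45680 was below background on all 6 arrays, at 6.09, 1.36 and 0.45 without and 4.21, 1.15 and 1.09 with DEX. AT3G45690 was at 6.46, 0.92 and 0.30 without and 1.93, 1.59 and 1.26 with DEX. In both, −DEX replicate 1 was the highest array, and without it their differences went from −0.48 to 1.25 and from −0.96 to 0.99. AT3G45720 was at 6.73, 6.29 and 0.72 without and 3.13, 0.76 and 4.66 with DEX, with overlapping groups and a difference of −1.73 ± 1.68 (SE; limma adjusted p = 0.858), which was −0.65 without −DEX replicate 1. The responses of these neighbours were not tested against each other.

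**Figure D4:**
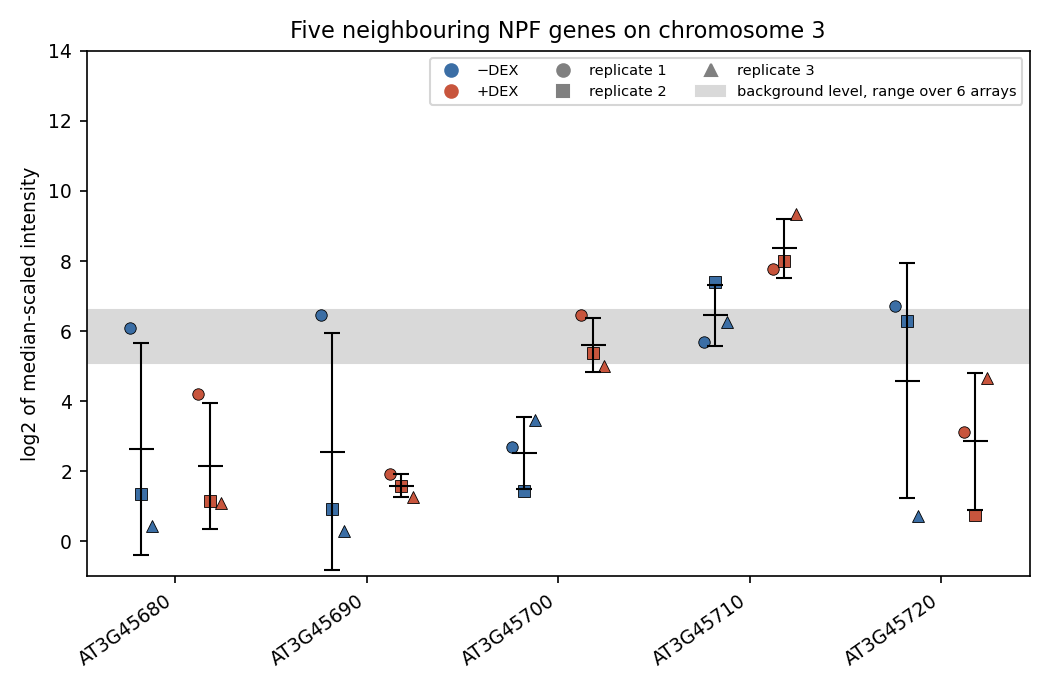
The log2 of the median-scaled intensity is shown on each array for 5 NPF genes that follow each other on chromosome 3; blue is −DEX, red +DEX, marker shape the replicate number, the horizontal line and bar the mean ± SD (n = 3), and the grey band the range of the background level. AT3G45700 and AT3G45710 had all +DEX values above all −DEX values, while the other 3 overlapped and had a −DEX replicate 1 value of 6.09 to 6.73.

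On chromosome 1, a row of 4 members (3 measured) and a row of 3 each held 1 gene above background on all 6 arrays. AT1G72140 had levels of 7.81, 9.04 and 10.28 without and 9.78, 10.41 and 11.31 with DEX. The groups overlapped, since −DEX replicate 3 exceeded +DEX replicate 1, and −DEX replicate 1 was the lowest array. The mean was 9.04 ± 1.24 without and 10.50 ± 0.77 with DEX (SD, n = 3 each), a difference of 1.45 ± 0.67 (SE; limma adjusted p = 0.751), or 2.74-fold. Without −DEX replicate 1 it was 0.84, and without −DEX replicate 3 it was 2.07. Beside it, AT1G72130 was below background on every array, and AT1G72125 (NPF5.13) was above it on 1 array per group, with a difference of −1.68 ± 1.30 (SE).

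In the other row, AT1G22570 was above background throughout, at 8.38, 8.80 and 7.62 without and 8.70, 8.34 and 8.15 with DEX. Its groups overlapped, and the difference was 0.13 ± 0.67 (SE; limma adjusted p = 0.981), with a 95% interval of −1.30 to 1.56. Its sign turned when −DEX replicate 3 or +DEX replicate 1 was left out, to −0.19 and −0.02. AT1G22540 was at 3.70, 6.63 and 5.73 without and 0.38, 7.58 and 6.67 with DEX. It was above background on replicates 2 and 3 of each group and below it on replicate 1 of each. AT1G22550 was above background on +DEX replicate 3 only.

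AT5G46040, the neighbour of PTR3 on chromosome 5, had levels of 1.79, 6.71 and 7.55 without and 7.57, 8.56 and 8.37 with DEX. The groups met with 0.02 between −DEX replicate 3 and +DEX replicate 1, and −DEX replicate 1 was far below the other 5 arrays. The difference of 2.81 ± 1.30 (SE; limma adjusted p = 0.751) was 1.04 without that array.

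Among genes without NPF neighbours, AT5G11570 had the lowest difference. It stood at 7.96, 4.44 and 5.47 without DEX and at 3.27, 1.65 and 1.67 with DEX, where all 3 arrays were below background. The groups were 1.17 apart, and −DEX replicate 1 was the highest array. The measured difference was −3.76 ± 1.35 (SE; limma adjusted p = 0.738), −2.75 without −DEX replicate 1 and −1.14 under a floor of 5 (log2). The −DEX mean of 5.95 was itself under the mean −DEX background level of 6.07, with −DEX replicate 2 below background, so no ratio is given.

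AT3G53960 stayed within a narrow range, at 5.43, 5.29 and 5.67 without and 5.75, 6.01 and 6.33 with DEX. The groups were 0.08 apart, 1 of 3 −DEX arrays was above background, and the difference was 0.57 ± 1.05 (SE; limma adjusted p = 0.938). That SE also draws on other probe sets of the fit and exceeded the spread of the gene's own arrays (SD 0.19 without and 0.29 with DEX). AT5G14940 exceeded background on +DEX replicates 2 and 3 only, at 4.75, 5.92 and 1.76 and at 1.55, 5.46 and 7.16, with wide overlap. AT5G13400 exceeded background on −DEX replicate 3 and on +DEX replicates 2 and 3, at 4.01, 5.62 and 5.38 and at 4.31, 5.23 and 5.83, with overlap. For AT5G28470 and AT2G40460, above background on −DEX replicate 1 only, the differences of −0.75 and −1.63 became 0.71 and −0.33 without that array. AT1G69860, AT2G37900, AT2G38100, AT3G01350, AT5G19640 and AT5G62730 lay below background on every array. Their differences, between −0.81 and 0.14, are thus differences between values below background.

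Across the family, 14 measured members had a higher and 20 a lower mean with DEX, a share of 41.2% higher against 46.1% of all probe sets. Without −DEX replicate 1 the balance was 18 higher and 16 lower. The median difference of the 34 was −0.32, beside −0.10 over all probe sets. Its sign and size depended on single arrays: it was 0.10 without −DEX replicate 1, 0.11 without +DEX replicate 2 (21 higher, 13 lower), −0.89 without −DEX replicate 3 (11 higher, 23 lower) and −0.80 without +DEX replicate 3 (13 higher, 21 lower). After quantile normalization it was −0.03, with 17 members on each side, and it was −0.12 as deposited. Among the 12 members never above background 9 were lower, with a median of −0.41, while all probe sets never above background had −0.64 and the 27 Bacillus controls −0.74. The background level itself had a lower mean on the +DEX arrays, 5.45 against 6.07, and its part in the differences of dim members was not tested.

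Of the 9 members above background on all arrays of a group, 7 had a higher and 2 a lower mean with DEX, with a median of 1.10, beside 0.12 over the 11345 probe sets chosen in the same way. This choice is not neutral: 4 of the 9 entered only through the +DEX arrays and 1 only through the −DEX arrays (14.1% and 2.38% of all probe sets did so), so this count does not speak for a direction of the family. In the 4 members above background on all 6 arrays the median was 0.62, beside −0.08 over the 7606 such probe sets. The 4 differences ran from −0.12 to 1.45. Without −DEX replicate 1 they were −0.48 (GTR1), 0.18 (AT1G22570), 0.75 (NPF4.3) and 0.84 (AT1G72140), so this median does not speak for a direction of the family either.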

How the data were processed

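The values were the authors' deposited intensities, 1 linear value per probe set and array for 22810 probe sets. Extraction was by TRIzol and labelling by a 3′ in vitro transcription kit, per the labels' protocols. How probes were summarised, the sources used here do not state. A 2% trimmed mean of 500 was common to all arrays as deposited. After removal of 64 Affymetrix controls, 22746 probe sets were scaled to a common array median, floored at 1 and taken to log2. Groups came from the sample titles. The fit was by limma 3.58.1 in R 4.3.3 (lmFit, then eBayes with a variance trend, two-sided, Benjamini-Hochberg over all probe sets). It was also run on simulated arrays, whose spread was smaller than that of most probe sets here. Differences are +DEX minus −DEX. The annotation gave 13436 probe sets 1 gene of the TAIR10.1 gene table, and 503 named several genes. That table served to link probe sets to loci, and for names and neighbours. Genes were named where above background on all arrays of a group or without overlap, and all other members are listed by arrays above background. Of 112 loci in 13 further lists, 8 were measured. The lists of peptide (OPT), amino acid and ammonium transporters, of NPF regulators, and of stele, root cap, leaf and seed markers had 0. The members and lists were chosen with earlier results of these data known. The alternatives were a replicate block, scaling, a filter, the variance trend, a floor, the background level and each array left out; a floor is a lowest value to which dimmer ones are raised. Only 6 arrays limit the precision. Arrays of DEX-treated protoplasts without the fusion were not analysed here.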

Additional observations from a re-analysis of the deposited data

How the results depend on the processing

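In all 12 alternative fits, 0 NPF members were lower and 0 higher at an adjusted p under 0.05, with a smallest adjusted p of a member between 0.301 and 0.948, and 0 probe sets of the whole table were higher. The fit without the dimmest 40% of probe sets tested only 9 of the 34 members, and AT5G11570 and AT3G45700 were left out of it. Over all probe sets, 27 were lower, but 0 under a floor of 5 (log2), 0 when eBayes had no variance trend, and 0 to 46 with single arrays left out. Members above background on all arrays of a group were 9, 8 against the highest Bacillus control, and 4 against the median of the dimmest 40% of probe sets plus 3 median absolute deviations. Their median difference of 1.10 was −0.32 over all measured members and 0.62 over those above background on all 6 arrays (a setting chosen after seeing the data), and 0.67 to 1.49 with single arrays left out. Signs turned for GTR1 (0.16 after quantile normalization, 0.074 as deposited, −0.48 to 0.12 with single arrays left out), AT1G22570 (−0.19 to 0.40), UGT74B1 (−1.15 to 0.28) and AT5G52050 (0.072 after quantile normalization), and 16 of 34 members kept their sign whichever array was left out. The cause was not tested. At an unadjusted p under 0.05, counted under these settings after seeing the data, 1 member was lower and 4 higher; these were 0 and 1 under a floor of 5 (log2), without the dimmest 40% and without −DEX replicate 1, 2 and 2 without −DEX replicate 2, 3 and 3 without −DEX replicate 3, 1 and 2 without +DEX replicate 1 or 2 or the variance trend, and 1 and 1 without +DEX replicate 3. For the pairing, correlations between the deviations of same-numbered arrays were 0.0254, −0.00506 and 0.014, against −0.0361 to 0.0252 between differently numbered ones, so the numbers were not taken to pair the samples; with the replicate block 33 probe sets were lower, among them 0 members. Averaging several probe sets per gene was not run, since 0 members had more than 1. Signal over background limits the family: 25 of 34 members were not above it on all arrays of either group.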
